A study of Mus musculus with 161 samples.

Results

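Actin cytoskeleton genes, which encode actin itself and the proteins that build, cap, bundle, anchor and move its filaments, were followed through 3 sorted stages of mouse monocyte development. The members were a list of 44 gene symbols, chosen by name and not by a threshold on these values, out of 43280 rows of the expression table. Earlier results of these data were known when the list was chosen. A gene counted as measured when it lay above 1 TPM, a length-scaled transcript abundance that adds up to a fixed total in each cell, in 10% or more of the cells of a stage. By that rule 43 of the 44 members and 14003 of all genes were measured. The exception, Fscn1, which encodes the filament bundler fascin, was listed at 0 in all 161 cells.

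The study profiled single cells of untreated C57BL/6 mice on the Fluidigm C1 microfluidic system to trace where monocytes come from. The first stage was the common monocyte progenitor (cMoP), a bone marrow cell committed to the monocyte lineage, sorted as Lin−CD117+CD115+CD135−Ly6C+ (66 cells). Bone marrow (BM) monocytes came from the same gate without CD117, as Lin−CD117-CD115+CD135−Ly6C+ (57 cells), and blood monocytes were sorted as CD115+CD11b+Ly6Chi (38 cells). The sources used here give no age, sex or number of mice, and no label names an animal. Each stage is therefore 1 sample of cells: the SDs below describe the spread between cells, no difference has a replicate check, and no test between stages was possible.

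The genes of the sort and of the stages were read first. Kit, the gene of CD117, was above 1 TPM in 59.1% of cMoP and in 0% of BM and of blood monocytes, and Csf1r, the gene of CD115, in 84.8%, 80.7% and 94.7%. Ly6c2, a gene of Ly6C, had medians of 5399 TPM in cMoP, 5858 TPM in BM and 2496 TPM in blood monocytes, and its mean log2 level was lower by 2.15 in blood than in BM monocytes. Mpo, a granule enzyme of progenitors, was above 1 TPM in 100% of cMoP and in 0% of blood monocytes, and Lyz2, the lysozyme gene, had medians of 645 TPM in cMoP, 52936 TPM in BM and 53611 TPM in blood monocytes. Over the cMoP the median cell had 6661.5 genes above 1 TPM, against 4719 over the BM and 4319.5 over the blood monocytes. Of the cMoP libraries, 60 share a flow cell and lane that the monocytes do not, so stage and flow cell cannot be told apart in the first comparison, whereas BM and blood monocytes share theirs. Mitochondrial transcripts above 15% of TPM or ribosomal protein transcripts below 5% were found in 11 cMoP, 9 BM and 11 blood libraries, called the marked libraries below. The mitochondrial limit took 11, 0 and 0 of them and the ribosomal limit 9, 9 and 11, so every marked monocyte library was taken by its ribosomal share alone. One of the blood libraries among them stood apart, with 0.372% of TPM in ribosomal protein genes, 67.3 TPM of Actb against at least 9132 TPM in the other 37, and 377 TPM of Lyz2 against at least 25841 TPM. Differences are given with all libraries, and without these where that matters.

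Actin monomers assemble into polar filaments that push the membrane forward, and the pool of free monomers is held by profilin and the thymosins. The Arp2/3 complex starts branches on existing filaments when WASP-family proteins activate it, capping proteins stop growth, and cofilin with its partners returns old filaments to monomers. In monocytes this cycle is known for driving crawling, the passage through vessel walls and the uptake of particles, while ERM proteins, talin and myosins join the network to the membrane and pull on it.

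The members together took a larger share of the transcriptome in both monocyte stages than in the progenitor. Summed over the 44 genes, cMoP held between 6061 and 41484 TPM with a median of 27450 TPM, which is 2.74% of a cell's total. BM monocytes held between 41801 and 96397 TPM with a median of 63334 TPM, or 6.33%. Blood monocytes had a median of 56678 TPM, or 5.67%, a highest value of 91464 TPM and a lowest of 9089 TPM in the library that stood apart. No cMoP reached the lowest BM monocyte, and 1 blood monocyte, that same library, lay below the highest cMoP. Without the marked libraries, cMoP ran from 18833 to 41484 TPM and blood monocytes from 41581 to 91464 TPM, so that these stages no longer overlapped. With Actb left out the medians were 19592, 41975 and 36131 TPM in cMoP, BM and blood monocytes. The stages then overlapped, since cMoP reached 30634.5 TPM and BM monocytes started at 21659.6 TPM. Blood monocytes without the marked libraries then started at 27095.4 TPM. With the 4 most abundant members left out the medians were 12232, 24206 and 23524 TPM. In that sum cMoP reached 22786 TPM and BM monocytes started at 13574 TPM. The lack of overlap thus held for the full sum only and not for these smaller sums.

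**Figure D1:**
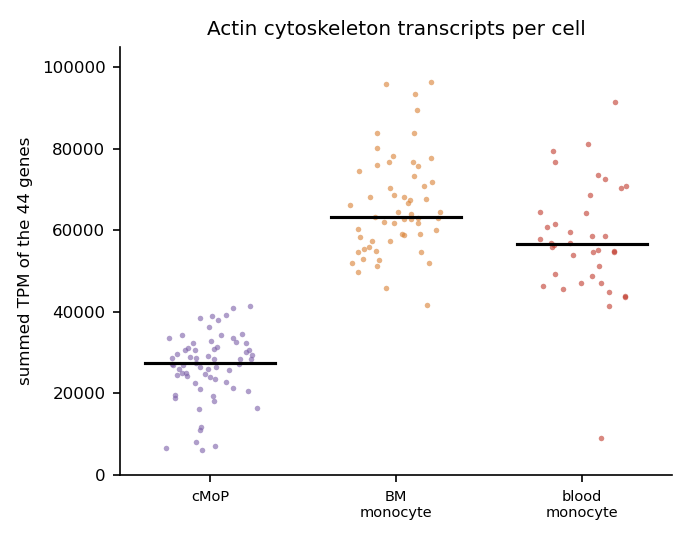
Summed TPM of the 44 actin cytoskeleton genes (vertical axis, TPM) in each single cell of the 3 sorted stages; each point is 1 cell and the bar marks the median of a stage. All 66 cMoP lie at or below 41484 TPM and all 57 BM monocytes at or above 41801 TPM.

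Differences for single genes are later stage minus earlier stage in log2(TPM + 1), averaged over the cells of a stage, and a difference of at least 1 in size is what the counts below use. From cMoP to BM monocytes 17 of the 43 measured members were higher by at least 1, against 3.94% of all measured genes, and 1 was lower, against 30.8%. The median difference of the members was 0.63, with 35 of 43 above 0, and that of all measured genes was -0.45. Since most members are abundant, measured genes with a mean of at least 100 TPM form a closer background. Among those 17 of 33 members were higher and 0 lower, against 16.7% and 44.7% of 1621 genes, with medians of 1.03 and -0.80. This background is set by a mean over all stages: 4 of the 33 members (Capg, Tln1, Marcks and Myo1g) had a mean under 100 TPM in cMoP, 2 of them among the higher ones, as had 385 of the 1621 genes, 180 of them higher. Of the 43 measured members 42 passed the measuring rule in all 3 stages, as did 8905 of the 14003 measured genes. Taken as a log2 ratio of mean TPM, a scale on which the median of all genes moved to -0.08, 18 members were higher and 0 lower, against 15.6% and 23.9%. Without the marked libraries, 12 were higher and 2 lower, against 4.08% and 34.9%.

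From BM to blood monocytes 2 of 43 members, Ezr and Marcks, were higher by at least 1, against 1.96% of all measured genes, and 14 were lower, against 9.66%. The members' median was -0.63 and that of all measured genes -0.10. Against genes with a mean of at least 100 TPM the lower members did not stand apart, with 11 of 33 members and 36.7% of all such genes lower, 1 member and 4.94% higher, and medians of -0.62 and -0.65. The downward count also depended on the scale. As a log2 ratio of mean TPM 2 members were higher and 1, Wasf2, was lower, against 16% and 23.5% of all genes. Without the marked libraries 2 members were higher and 11 lower, against 2.22% and 10.4%. The 2 comparisons share the BM monocytes, so their values are set side by side and not related to each other. Below, values given without a stage are in the order cMoP, BM and blood monocytes, with lowest and highest cell in brackets, and paired differences are BM minus cMoP and blood minus BM. Single cells of neighbouring stages overlapped for all measured members, and overlap was not counted over all measured genes. Apart from Actb, Tmsb4x and Lsp1, at most 15 of 66 cMoP (for Tmsb10) lay below the lowest BM monocyte, and at most 7 of 38 blood monocytes (for Arpc5) lay below it.

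**Figure D2:**
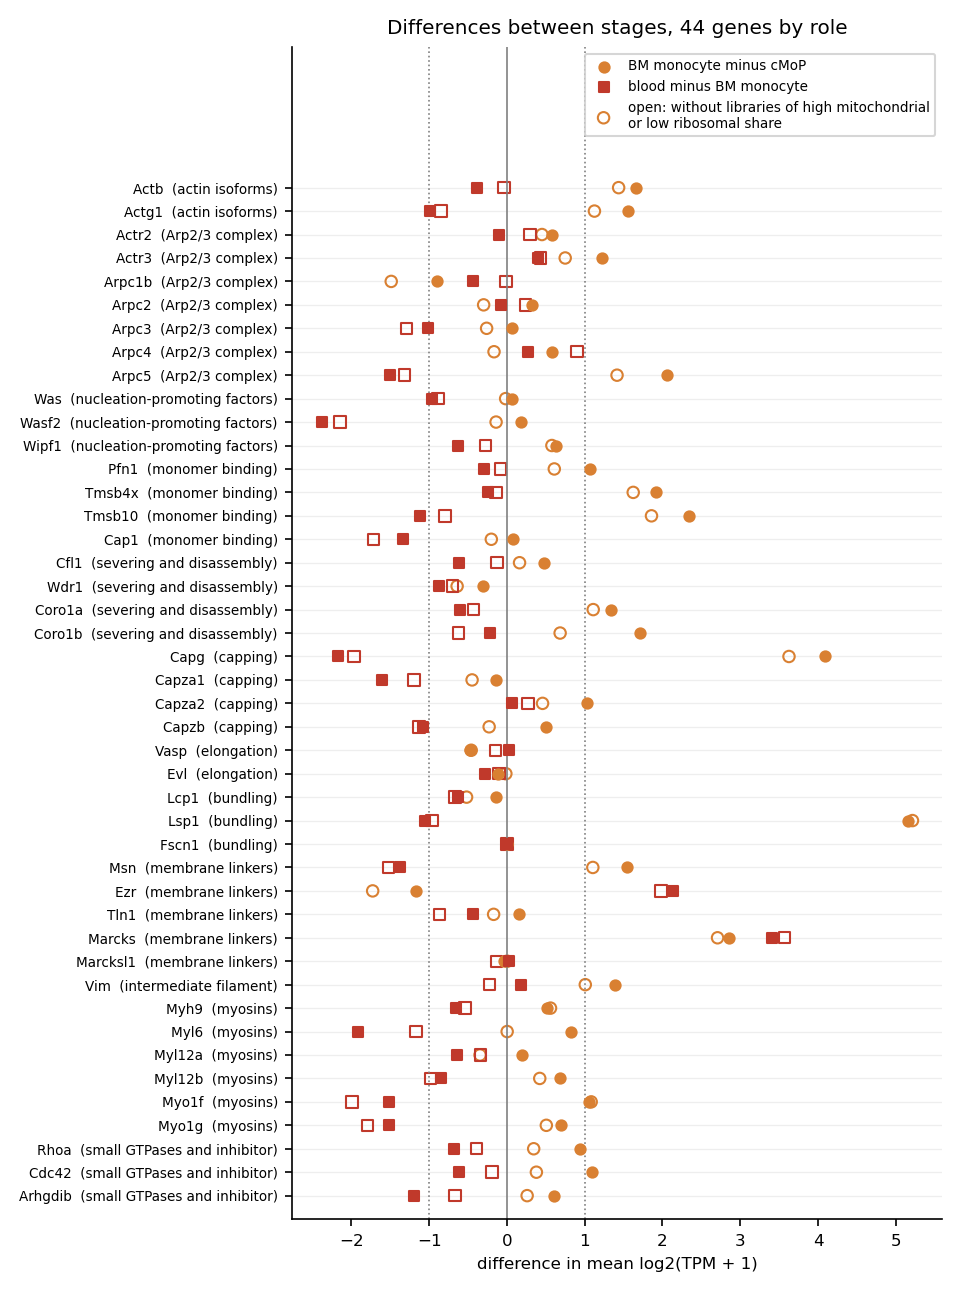
Difference in mean log2(TPM + 1) of each member, ordered by role, for BM monocytes minus cMoP and blood minus BM monocytes; filled markers use all libraries and open markers leave out the marked libraries. Lsp1 (5.16) and Capg (4.09) lie farthest to the right in the first comparison, and Marcks (3.40) and Ezr (2.14) in the second.

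Both cytoplasmic actin isoforms were higher in BM monocytes than in the progenitor. Actb, the gene of beta-actin, ran from 1439 to 16081 TPM in cMoP with a median of 7855 TPM, from 12103 to 37800.1 TPM in BM monocytes with a median of 21518 TPM, and from 67.3 TPM, in the library that stood apart, to 46999 TPM in blood monocytes with a median of 19586 TPM. Its mean log2 values were 12.80 ± 0.70 (SD, n = 66), 14.46 ± 0.37 (SD, n = 57) and 14.08 ± 1.44 (SD, n = 38). In 60 of 66 cMoP Actb lay below the lowest BM monocyte, and the difference of 1.66 was larger than either SD. Blood and BM monocytes overlapped widely, and their difference of -0.38 was -0.16 without the blood library that stood apart. By mean TPM Actb ranked 10 among all genes in cMoP and 2 in both monocyte stages.

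Actg1 encodes gamma-actin, which differs from beta-actin at a few residues near its start. It had medians of 2574 TPM (55.9 to 6359) in cMoP, 6944 TPM (774 to 14007) in BM and 4263 TPM (26.4 to 11679) in blood monocytes. The mean log2 values were 10.95 ± 1.39 (SD, n = 66), 12.50 ± 0.82 (SD, n = 57) and 11.51 ± 2.05 (SD, n = 38), with differences of 1.55 and -0.99. The 3 ranges overlapped, although 53 of 57 BM monocytes lay above the cMoP median. Actb exceeded Actg1 in every cell of the 3 stages, by a mean log2 ratio of 1.85 in cMoP, 1.96 in BM and 2.57 in blood monocytes. Of the 50-base stretches of the longest Actg1 transcript 56.7% also occur in transcripts of other genes, and 14.2% for Actb, so the split of reads between these copies is uncertain. Such sharing exceeded 10% for 12 of the 44 members, including Actr3 (49.8%) and Tmsb10 (43.5%), and was nil for 20. Actb (chr5:142903115-142906754, minus strand, GRCm38) has Fscn1 (chr5:142960343-142973185, plus strand), the member listed at 0 in all cells, close by on the same chromosome.

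**Figure D3:**
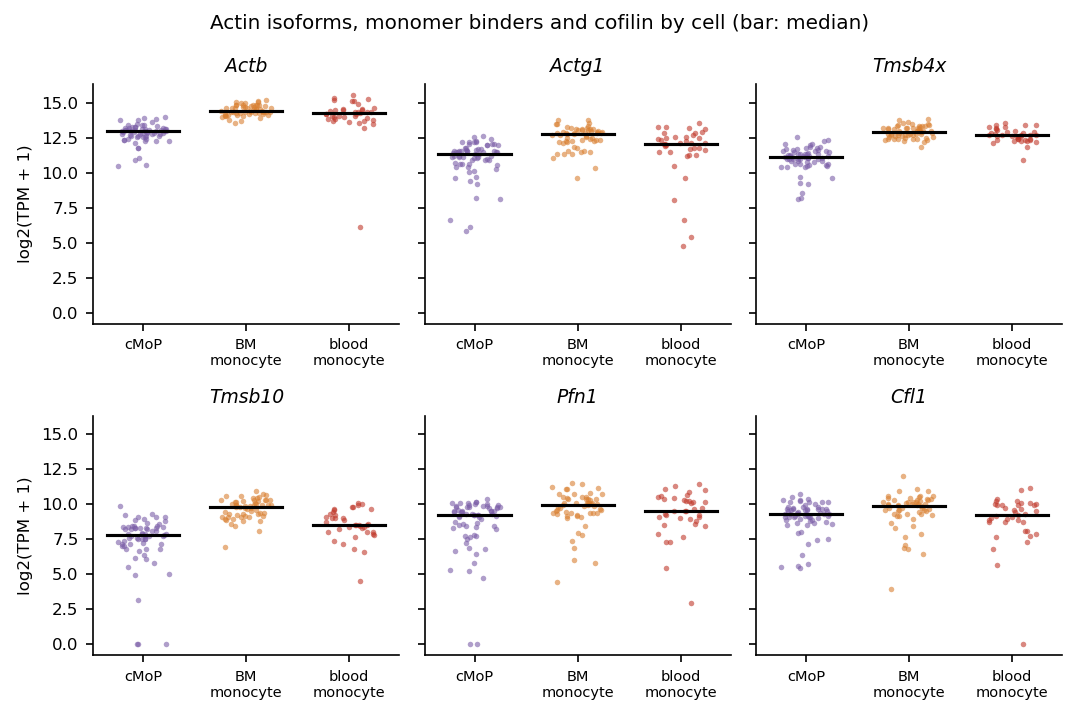
Level as log2(TPM + 1) (vertical axes) of Actb, Actg1, Tmsb4x, Tmsb10, Pfn1 and Cfl1 in every cell of the 3 stages; each point is 1 cell and the bar marks the median. Actb and Tmsb4x show the least overlap between cMoP and BM monocytes, and Cfl1 overlaps throughout, with medians of 624, 941 and 606 TPM.

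Serum response factor (SRF) with its actin-sensing partner MRTF is known to act on many actin genes through the CArG box, so the member promoters were searched for it. The search covered 250 bases before each RefSeq start of build GRCm38.p6, on both strands of this palindromic motif. Of 51 promoters of 40 matched members, 3 held a CArG box (5.88%), against 5 of 98 promoters (5.10%) of 76 matched genes of a wider actin list and 482 of 32851 promoters overall (1.47%). Actb, Coro1b, Lsp1 and Marcks were not matched. The 3 windows that hold the box, in capitals, are shown 5′ to 3′ along each gene's strand to let the sites be compared.
Actg1: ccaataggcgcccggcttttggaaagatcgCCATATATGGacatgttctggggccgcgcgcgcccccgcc
Myl6: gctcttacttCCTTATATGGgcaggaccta
Arpc4: CCTAATTTGGtgcccaacct
The Actg1 window is chr11:120348546-120348615 on the minus strand, with the box 90 to 81 bases before the start and no annotated gene over it. The Myl6 window is chr10:128493040-128493069 on the minus strand, 50 to 41 bases before a start that lies inside the annotated Myl6 gene. The Arpc4 window is chr6:113377863-113377882 on the plus strand, 250 to 241 bases before the start and at the edge of the neighbouring gene Tada3. The 3 genes did not share a course: Actg1 differed by 1.55 and -0.99, Myl6 by 0.82 and -1.91, and Arpc4 by 0.58 and 0.27. Srf and its partner Mkl1 were low throughout, with medians of 0.105 and 1.56 TPM in cMoP and 0 in both monocyte stages. The TATAAA letters, on either strand, were in 9.80% of member promoters and 12.4% of all promoters.

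In the Arp2/3 complex, 2 of 7 subunits were higher by at least 1 in BM monocytes and 2 were lower by at least 1 in blood monocytes, against 3.94% and 9.66% of all measured genes and 16.7% and 36.7% of those with a mean of at least 100 TPM. Actr3 encodes Arp3, one of the actin-like subunits on which the branch grows. Its median was 311 TPM (7 to 1817) in cMoP, 614 TPM (14.7 to 3364) in BM and 828 TPM (10.4 to 4918) in blood monocytes. The ranges overlapped nearly in full, and the first difference of 1.22 was 0.75 without the marked libraries and -0.23 among the 7 cMoP and 29 BM monocytes that also had 4500 to 6000 genes. Arpc5, the gene of the smallest subunit, had medians of 278 TPM (0 to 1226), 662 TPM (32.6 to 4401) and 495 TPM (3.29 to 4482) in the same order, with differences of 2.06 and -1.51. Arpc3, another small subunit, was far less abundant, with medians of 15.3 TPM (0 to 322), 6.51 TPM (0 to 499) and 2.95 TPM (0 to 1239). Its blood difference of -1.01 was -0.94 without the blood library that stood apart. The other four subunits stayed within 1 in both comparisons, from -0.90 for Arpc1b to 0.58 for Actr2 and Arpc4 in the first and from -0.43 to 0.27 in the second. Without the marked libraries Arpc1b was lower in BM monocytes by more than 1, at -1.49.

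Nucleation-promoting factors switch Arp2/3 on, and Wipf1 was grouped with their genes. None of the 3 genes differed by 1 or more between cMoP and BM monocytes, with values from 0.06 for Was to 0.63 for Wipf1. That depended on the scale. As a log2 ratio of mean TPM the values were 0.43 for Was, 1.09 for Wasf2 and 1.36 for Wipf1. Wasf2 encodes WAVE2, the activator used at the leading edge. It lay above 1 TPM in 64 of 66 cMoP (97.0%, 95% Clopper-Pearson interval 89.5 to 99.6), 49 of 57 BM monocytes (86.0%, 74.2 to 93.7) and 23 of 38 blood monocytes (60.5%, 43.4 to 76.0). Its medians were 47.2 TPM (0 to 347), 70.9 TPM (0 to 915) and 6.58 TPM (0 to 716), and the blood difference was -2.38. Wasf2 was the one member that was lower by at least 1 in blood on both scales, at -1.32 as a log2 ratio of mean TPM. Was, the gene of the Wiskott-Aldrich syndrome protein, differed by -0.96 in blood, and by -1.04 without the library that stood apart.

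Genes of monomer-binding proteins held some of the largest differences among the abundant members. Tmsb4x encodes thymosin beta-4, the main store of free actin monomers. It ran from 280.4 to 6033 TPM in cMoP with a median of 2244 TPM, from 3580.0 to 14475 TPM in BM monocytes with a median of 7749 TPM, and from 1927 to 11904 TPM in blood monocytes with a median of 6583 TPM. Of 66 cMoP 58 lay below the lowest BM monocyte, and the mean log2 values of 10.99 ± 0.88 (SD, n = 66) and 12.90 ± 0.43 (SD, n = 57) differed by 1.92. Blood monocytes, at 12.67 ± 0.50 (SD, n = 38), differed from BM monocytes by -0.24. Tmsb10, a second beta-thymosin, had medians of 218 TPM (0 to 934) in cMoP, 904 TPM (124 to 1999) in BM and 368 TPM (21.8 to 1079) in blood monocytes. Its differences were 2.34 and -1.12, the second one -0.79 without the marked libraries, and 54 of 57 BM monocytes lay above the blood median.

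Pfn1 encodes profilin, which delivers monomers to growing ends. Its medians were 604 TPM (0 to 1342), 958 TPM (20.4 to 2935) and 739.7 TPM (6.67 to 2749.8), and mean log2 values were 8.55 ± 2.01 (SD, n = 66), 9.61 ± 1.37 (SD, n = 57) and 9.32 ± 1.65 (SD, n = 38). The first difference of 1.06 was within those SDs and became 0.61 without the marked libraries. Cap1, a cyclase-associated protein that recycles monomers, was detected above 1 TPM in 75.8% of cMoP (interval 63.6 to 85.5), 75.4% of BM (62.2 to 85.9) and 47.4% of blood monocytes (31 to 64.2). Its medians were 16.8 TPM (0 to 508), 10.4 TPM (0 to 336) and 0.815 TPM (0 to 804), with differences of 0.07 and -1.33.

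Disassembly genes were split. Cfl1, the gene of cofilin, which severs aged filaments, had medians of 624 TPM (42.5 to 1672), 941 TPM (14.4 to 4059) and 606 TPM (0 to 2226). Its mean log2 values of 9.04 ± 1.19 (SD, n = 66), 9.52 ± 1.32 (SD, n = 57) and 8.91 ± 1.87 (SD, n = 38) differed by 0.48 and -0.61, less than the spread between cells. Coro1a, the coronin of leukocytes, had medians of 605 TPM (3.22 to 2142), 1442 TPM (4.88 to 4482) and 1152 TPM (7.30 to 3901), with differences of 1.34 and -0.61. Coro1b, a related coronin, differed by 1.71 and -0.22 around medians of 73.5 TPM (0 to 713), 194 TPM (0 to 4273) and 286 TPM (0 to 4138). The Coro1b difference was 0.68 without the marked libraries, and 20.8% of the 50-base stretches of its transcript also occur in transcripts of Ptprcap. Wdr1, whose product assists cofilin, differed by -0.31 and -0.87.

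Capping genes were split in the first comparison. Capg, a calcium-dependent capping protein of the gelsolin family prominent in macrophages, had medians of 45.4 TPM (0 to 455) in cMoP, 555 TPM (0 to 2491) in BM and 101 TPM (0 to 3512) in blood monocytes. The mean log2 values were 4.56 ± 3.19 (SD, n = 66), 8.65 ± 2.41 (SD, n = 57) and 6.49 ± 3.29 (SD, n = 38), giving differences of 4.09 and -2.17. Of 57 BM monocytes 51 lay above the cMoP median and 33 of 57 lay above the highest cMoP. The heterodimeric capping protein showed no such step. Capza1, an alpha subunit, had medians of 309 TPM (0 to 1064), 423 TPM (0 to 2896) and 145 TPM (0 to 2929), with differences of -0.14 and -1.60, and 73.8% of its 50-base stretches occur in transcripts of other genes. Capza2, the second alpha subunit, had medians of 607 TPM (0.410 to 2489.9), 1119 TPM (10.6 to 4342) and 1921 TPM (1.68 to 3979), with differences of 1.03 and 0.07. That first difference was 0.46 without the marked libraries. Capzb, the beta subunit, had medians of 262 TPM (0 to 838), 368 TPM (0.850 to 1747) and 170.5 TPM (0 to 2369.6), with differences of 0.50 and -1.08.

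Lsp1 differed most of all members between cMoP and BM monocytes. It encodes leukocyte-specific protein 1, an actin-binding protein of white blood cells. Values ran from 0 to 2313 TPM in cMoP with a median of 169 TPM, from 622 to 9205 TPM in BM monocytes with a median of 2819 TPM, and from 15.4 to 4938 TPM in blood monocytes with a median of 1688 TPM. The mean log2 values were 6.22 ± 3.21 (SD, n = 66), 11.38 ± 0.94 (SD, n = 57) and 10.34 ± 1.89 (SD, n = 38), and the first difference was 5.16, or 5.21 without the marked libraries. The progenitors were spread widely: 26 of 66 lay below 100 TPM, a level chosen after the values were seen, and 53 of 66 lay below the lowest BM monocyte. The blood difference of -1.05 was -0.88 without the library that stood apart. Lcp1, whose product L-plastin bundles filaments in leukocytes, differed by -0.15 and -0.62.

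**Figure D4:**
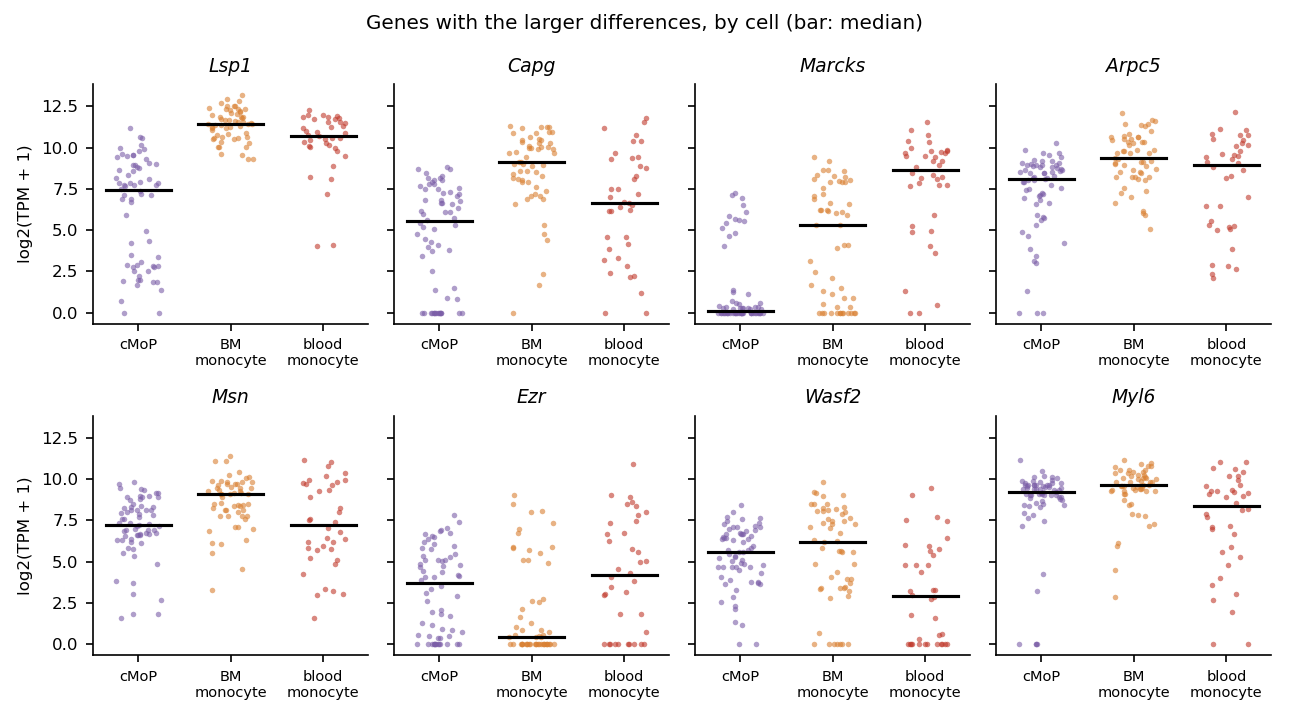
Level as log2(TPM + 1) (vertical axes) of Lsp1, Capg, Marcks, Arpc5, Msn, Ezr, Wasf2 and Myl6 in every cell of the 3 stages; each point is 1 cell and the bar marks the median. Lsp1 and Capg are higher in BM monocytes than in cMoP, Marcks is higher at each later stage, and Ezr is lowest in BM monocytes with a median of 0.330 TPM.

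The membrane linkers held the 2 members that were higher in blood. Marcks encodes a membrane-bound substrate of protein kinase C that binds actin. It was above 1 TPM in 17 of 66 cMoP (25.8%, interval 15.8 to 38), 39 of 57 BM monocytes (68.4%, 54.8 to 80.1) and 35 of 38 blood monocytes (92.1%, 78.6 to 98.3). Its medians were 0.0800 TPM (0 to 149.7), 38.5 TPM (0 to 677) and 403 TPM (0 to 2992), with mean log2 values of 1.37 ± 2.36 (SD, n = 66), 4.23 ± 3.42 (SD, n = 57) and 7.63 ± 3.14 (SD, n = 38). Marcks was the one member higher by at least 1 in both comparisons, at 2.86 and 3.40. Its paralogue Marcksl1 was above 1 TPM in 15.2% of cMoP, 8.77% of BM and 7.89% of blood monocytes, with differences of -0.04 and 0.02. Both genes were above 1 TPM in 5, 4 and 3 cells of the 3 stages.

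Moesin and ezrin, sister ERM proteins that tie filaments to the membrane, differed in opposite directions. Msn, the moesin gene, had medians of 149.9 TPM (2.02 to 899) in cMoP, 543 TPM (8.54 to 2715) in BM and 152 TPM (1.94 to 2299) in blood monocytes, with differences of 1.55 and -1.38. Ezr, the ezrin gene, was above 1 TPM in 66.7% of cMoP (interval 54 to 77.8), 38.6% of BM (26 to 52.4) and 71.1% of blood monocytes (54.1 to 84.6). Its medians were 12.2 TPM (0 to 222), 0.330 TPM (0 to 521) and 17.4 TPM (0 to 1942), and its differences were -1.17 and 2.14. The first of these was 0.29 as a log2 ratio of mean TPM, so the direction between cMoP and BM monocytes depends on the scale, while the second was 1.86 on that scale. Within single cells the mean log2 ratio of Msn to Ezr was 3.82 ± 2.83 (SD, n = 66) in cMoP, 6.54 ± 3.14 (SD, n = 57) in BM monocytes and 3.02 ± 3.33 (SD, n = 38) in blood monocytes. Both genes were above 1 TPM in 44, 22 and 27 of these cells, and in the others the value of 1 added to each TPM weighs on the ratio. Tln1, the gene of talin, which joins filaments to integrins, differed by 0.16 and -0.44.

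Vim, which encodes the intermediate filament protein vimentin and is no actin gene itself, had medians of 774 TPM (2.83 to 1902), 1825 TPM (10.1 to 6424) and 2779 TPM (7.97 to 10226). Its differences were 1.39 and 0.18, and the first was 1.01 without the marked libraries.

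Among the 6 myosin genes, 1 was higher in BM monocytes and 3 were lower in blood by at least 1. The shares were the same 3.94% and 9.66% for all measured genes. For those with a mean of at least 100 TPM they were 16.7% and 36.7%. On the scale of a log2 ratio of mean TPM no myosin gene was lower in blood by at least 1, beside 23.5% of all measured genes. Myo1f, a single-headed myosin of leukocytes that links membrane and actin, had medians of 81.0 TPM (0 to 371), 133 TPM (0 to 1918) and 69.7 TPM (0 to 1277), with differences of 1.05 and -1.52. Myo1g, a blood-cell relative, had medians of 42.8 TPM (0 to 302), 84.7 TPM (0 to 1429) and 7.05 TPM (0 to 1944), with differences of 0.69 and -1.52. As a log2 ratio of mean TPM the first Myo1g difference was 2.04, and 21 of 57 BM monocytes lay above the highest cMoP. Myl6, the essential light chain of non-muscle myosin, had medians of 600.5 TPM (0 to 2315), 789 TPM (6.39 to 2295) and 334 TPM (0 to 2106), with differences of 0.82 and -1.91. Without the marked libraries these were 0.00 and -1.17. The heavy chain gene Myh9 and the regulatory light chains Myl12a and Myl12b stayed within 1, from 0.19 to 0.68 in the first comparison and from -0.85 to -0.64 in the second.

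Small GTPases and their inhibitor were represented by 3 genes. Cdc42, the GTPase of filopodia and polarity, had medians of 609 TPM (0 to 2436), 1040.1 TPM (44 to 2932) and 832 TPM (2.41 to 5415), and its differences were 1.09 and -0.61. The first was 0.38 without the marked libraries. Arhgdib, an inhibitor that keeps such GTPases in the cytosol of blood cells, had medians of 2142 TPM (21 to 5707), 3089 TPM (252 to 8476) and 1751 TPM (11.4 to 5437). Its differences were 0.60 and -1.20, the second -0.67 without those libraries. Rhoa, the GTPase of contraction, differed by 0.94 and -0.68. The elongation genes Vasp and Evl were above 1 TPM in a minority of cells of each stage, from 17.5% to 39.4%, and stayed within 1 in both comparisons.

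Grouped by course, 10 members were higher by at least 1 in BM monocytes and then within 1 in blood: Actb, Actg1, Actr3, Pfn1, Tmsb4x, Coro1a, Coro1b, Capza2, Vim and Cdc42. Of all measured genes 2.34% had that course. A further 6 were higher and then lower, Arpc5, Tmsb10, Capg, Lsp1, Msn and Myo1f, against 1.08% of all measured genes, and 8 were within 1 and then lower, against 3.6%. Marcks alone was higher in both comparisons (0.521% of all), and Ezr alone was lower and then higher (0.350% of all). Within 1 in both comparisons were 18 members including Fscn1, against 60.6% of all measured genes. These groups use the same BM cells for both steps and describe these libraries. The courses were not counted among genes with a mean of at least 100 TPM. Among those, 11 of 33 members were lower in blood, against 36.7% of all such genes. Of the 14 members lower in blood, 1 stayed lower as a log2 ratio of mean TPM.

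The wider actin list, 94 genes that were not members, of which 82 were measured, was read in the same way. From cMoP to BM monocytes 10 of the 82 (12.2%) were higher by at least 1 and 24 (29.3%) lower, beside 3.94% and 30.8% of all measured genes, with a median of -0.43 beside -0.45. As a log2 ratio of mean TPM 24 (29.3%) were higher and 14 (17.1%) lower, beside 15.6% and 23.9%, and the median was 0.24. Of the 23 with a mean of at least 100 TPM, 6 were higher and 6 lower, beside 16.7% and 44.7% of all such genes, with a median of 0.09 beside -0.80. The 5 with the largest lower differences were Coro7, a Golgi coronin (-3.44), Sptbn1, a spectrin of the membrane skeleton (-3.17), Rdx, the third ERM gene (-2.79), Tagln2, a transgelin (-2.75), and Limk2, a cofilin kinase (-2.62). The 5 with the largest higher ones were Cotl1, which encodes coactosin-like protein (2.45), Gsn, the severing protein gelsolin (2.38), Ssh2, a cofilin phosphatase (2.09), Add3, an adducin (2.06), and Fmnl1, a formin of leukocytes (1.99). From BM to blood monocytes 2 of 82 (2.44%) were higher and 15 (18.3%) lower, beside 1.96% and 9.66%, with a median of -0.20. Of the 23 with a mean of at least 100 TPM, 1 was higher and 7 (30.4%) lower, beside 4.94% and 36.7% of all such genes. Their medians were -0.56 and -0.65, so on that background the lower genes did not stand apart. As a log2 ratio of mean TPM 11 (13.4%) were higher and 10 (12.2%) lower, beside 16% and 23.5% of all measured genes, with a median of 0.01. Dstn, a cofilin relative (-2.63), Dbnl, a drebrin-like adaptor (-2.22), Dock2, a Rac activator (-1.83), Flna, the crosslinker filamin A (-1.80), and Iqgap2, a scaffold (-1.76), were lowest. Plek, a protein kinase C substrate (1.43), Abi3 of the WAVE complex (1.12), Vav1, an exchange factor (0.65), Fermt3, an integrin activator (0.47), and Rhob, a small GTPase (0.45), were highest.

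Cells of a stage varied in how much actin cytoskeleton RNA they held. The Spearman correlation of summed member TPM with the number of genes above 1 TPM was 0.48 over 66 cMoP, -0.15 over 57 BM monocytes and -0.65 over 38 blood monocytes. Without the marked libraries it was 0.26, -0.10 and -0.81. The mean log2 level over the members, in which abundant genes weigh no more than others, correlated with the gene number at 0.67, 0.22 and 0.24, and at 0.53, 0.27 and 0.42 without the marked libraries. The sign in the monocyte stages therefore differed between the summed and the mean log2 measure. The points of a stage share its library preparation, and both measures come from the same TPM scaling, so these are descriptions only. Over the 903 pairs of measured members the median correlation was 0.14 in cMoP, 0.04 in BM and 0.05 in blood monocytes, and 0.04, 0.04 and 0.01 without the marked libraries. Actb and Tmsb4x correlated at 0.42, 0.47 and 0.29, or 0.18, 0.50 and 0.19 without those libraries. Actb and Actg1 correlated at 0.60, 0.13 and -0.10, or 0.42, 0.25 and -0.06 without them.

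**Figure D5:**
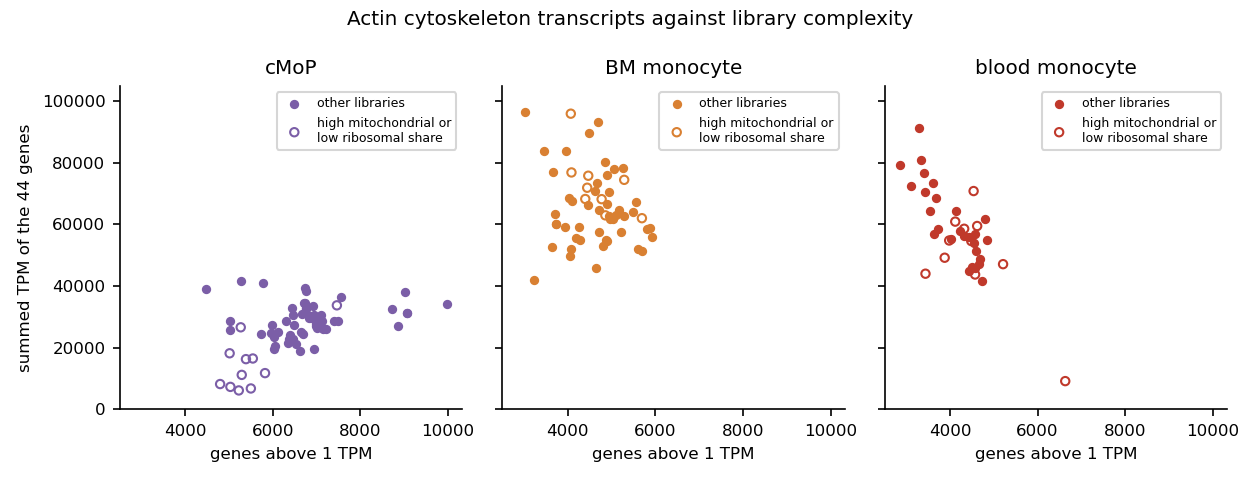
Summed TPM of the 44 members (vertical axis, TPM) against the number of genes above 1 TPM (horizontal axis) for each cell, by stage; open points are the marked libraries (mitochondrial above 15% or ribosomal protein below 5% of TPM). Apart from the blood library at 9089 TPM and 6630 genes, the BM and blood monocytes lie above the cMoP at similar gene numbers.

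Markers of other cell types were read in the same cells, since platelets carry much Actb and Tmsb4x RNA. None of 10 platelet markers was measured, 8, 8 and 6 of them were listed at 0 throughout cMoP, BM and blood monocytes, and their summed TPM had a median of 0 in each stage and a highest value of 18.5, 663 and 39.1 TPM. Summed neutrophil markers had medians of 10.2, 47.2 and 15.3 TPM and highest cells of 748, 1912 and 1734 TPM, and 4 of 10 were measured. T and NK cell markers, 4 of 9 measured, had medians of 116, 0 and 0 TPM and highest cells of 2803, 999.6 and 35.8 TPM. Dendritic cell markers, 5 of 9 measured, had medians of 1.81, 1.73 and 1.46 TPM and highest cells of 468, 1563 and 742 TPM. Erythroid markers, 5 of 8 measured, had medians of 2.0, 0 and 0 TPM and highest cells of 444, 206 and 27.6 TPM. Each of these lists had cells at 0 in every stage. All 10 monocyte markers were measured, with summed medians of 7778, 65915 and 65316 TPM, all 9 progenitor markers, with 19490.4, 23.6 and 14.1 TPM, and all 9 markers of Ly6C-low monocytes, with 102, 157 and 590 TPM. Summed expression of 20 genes of the G2 and M phases was lower at each later stage, with medians of 1882, 43.4 and 18.8 TPM, and 10 immediate early genes had medians of 238, 3083 and 5373 TPM. The part of these marker, cell cycle and immediate early levels in the member differences was not tested. In the narrower set of cells with 4500 to 6000 genes and without the marked libraries, 7 cMoP and 29 BM monocytes remained, and 13 members were higher and 0 lower, against 11.7% and 24.1% of all measured genes, with medians of 0.49 and -0.03. Of the 17 members higher with all cells, Actr3, Arpc5, Pfn1, Coro1b, Capza2 and Cdc42 were not higher by at least 1 in that set. From the 29 BM to the 10 blood monocytes left in it, 4 members were higher and 10 lower, against 7.4% and 14.1% of all measured genes. Of the 14 members lower in blood with all cells, 5 stayed lower by at least 1 in that set. Arpc3, Arpc5, Cap1, Capg, Capza1, Capzb, Lsp1, Myo1f and Myo1g did not. Was, Wdr1, Coro1a, Myh9 and Rhoa were lower there but not with all cells, and Coro1b and Capza2 were higher there only.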

How the data were processed

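Values were TPM, a transcript abundance scaled by gene length and to a fixed total, in 1 table with 1 column for each of 161 single-cell libraries, deposited by the authors. Per the submitters' processing notes the authors used RSEM 1.2.19 and build GRCm38. The aligner is not given in the sources used here, nor is the annotation. Column sums ran from 997939 to 999955. Depth per cell is unknown, since TPM does not keep it, and with fixed totals an abundant transcript lowers the others in its cell. A value of 0 may reflect a failed estimate: S100a9, for one, is listed at 0 in every cell.

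Groups came from the labels. Differences were means over cells of log2(TPM + 1), which understates differences of low genes. Shares of cells carry 95% Clopper-Pearson intervals that cover the counting of cells only. No doublet caller was run, and no 2 libraries held identical values. Described with values per stage were Actb, Actg1, Tmsb4x, Tmsb10, Cfl1 and Pfn1 and each member that differed by at least 1; of the wider actin list, the 5 largest differences per direction. The members and lists were chosen with earlier results of these data known. Positions and shared 50-base stretches used GENCODE M21, and promoters RefSeq on GRCm38.p6. One list of markers is not reported here. Alternatives covered pseudocounts, scaling, filters and sets of libraries. Computation used Python 3.11.15, pandas 2.3.3 and SciPy 1.17.1. The formula for differences, but not the other functions, was tried on cells resampled from 1 stage with planted changes.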

Additional observations from a re-analysis of the deposited data

How the results depend on the processing

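No paired analysis was possible because each stage is 1 sample of cells with no shared replicate numbers. The number of members lower in BM monocytes than in cMoP, 1 with all cells, was 0 with a pseudocount of 10, as a log2 ratio of mean TPM, after median-ratio scaling, in cells with 4500 to 6000 genes and without the cMoP libraries that name no flow cell, and 2 without the libraries of high mitochondrial or low ribosomal protein share. Ezr, lower in that comparison, was 0.29 as a log2 ratio of mean TPM, and Actr3 was -0.23 in cells with 4500 to 6000 genes. Median-ratio scaling moved the median of all genes from -0.45 to -0.31 and the members higher from 17 to 24. Of all measured genes 5.33% were higher after it, against 3.94% before. From BM to blood monocytes 14 members were lower with all cells and 1 as a log2 ratio of mean TPM. Of all measured genes 9.66% and 23.5% were lower. The members higher were 2 with all cells and 4 in cells with 4500 to 6000 genes, against 1.96% and 7.4%. At 10 TPM in place of 1 TPM the share of cells was 51.5% for Ezr in cMoP, 86.4%, 73.7% and 39.5% for Wasf2 in cMoP, BM and blood monocytes, 59.1%, 50.9% and 26.3% for Cap1, and 6.06% for Marcksl1 in cMoP. Why values moved was not tested. The other 123 of 139 summary values stayed within their spread or within 1.5 times. Of 774 single-gene differences under the alternatives 66 changed sign, 21 of 86 in cells with 4500 to 6000 genes, 15 of 86 without the libraries of high mitochondrial or low ribosomal protein share and 13 of 86 as a log2 ratio of mean TPM. Among the 306 whose value with all cells was at least 1 in size, 2 changed sign, those of Ezr and Actr3. The background of genes with a mean of at least 100 TPM and the runs without the blood library that stood apart were added after seeing the data. Without that library the blood counts were 2 higher and 13 lower, against 2.10% and 9.33% of all measured genes. Depth is unknown, so values at 0 do not show absence.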
